A study of Mus musculus with 6 samples.

Results

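The Nrf2 antioxidant genes described here are 10 genes picked by symbol among the 57186 genes of the deposited count table: the transcription factor gene Nfe2l2, its inhibitor gene Keap1 and 8 genes of the enzymes and transporter that the factor is known to switch on. All 10 were found and all 10 passed the filter on low counts. They were measured by bulk RNA-seq in sorted cells negative for CD45, the antigen shared by leukocytes, from tumours grown from MB49, a bladder carcinoma line derived from a male mouse. The cells carried either CRISPR Y-KO, an edit that removes the Y chromosome, or CRISPR Y-Scr, the scrambled control, and both had been grown as subcutaneous tumours in C57Bl/6J mice, which have an intact immune system, and were harvested at a tumour size of 500 mm3. There were 3 libraries of each group, all with 1 batch label. Whether an edited line was a single clone, and whether the replicates came from separate animals, is not given in the sources used here, so each p-value reflects the scatter among these libraries alone, and that scatter may be technical.

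Nfe2l2 encodes Nrf2, a transcription factor that the adaptor protein Keap1 normally hands to a ubiquitin ligase for destruction. Oxidants and electrophiles modify Keap1, Nrf2 then accumulates, pairs with a small Maf protein and binds antioxidant response elements near genes of glutathione and thioredoxin metabolism, quinone reduction, haem breakdown and export. This control acts mostly on the protein, so the level of Nfe2l2 mRNA is not a measure of Nrf2 activity. In tumours the pathway is known for protecting cells against oxidative stress and drugs, and Hmox1 is known to be high also in macrophages.

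The DNA just before the start sites of these genes is shown because it can hold the letters that Nrf2 is known to recognise. RefSeq promoter windows (GRCm38.p6, an older build than that of the counts) were matched for 6 of the 10 genes, namely Nfe2l2, Keap1, Gclm, Txnrd1, Srxn1 and Nqo1. With 3 start sites for Txnrd1 these were 8 promoters. The core of the antioxidant response element, searched as TGACNNNGC on both strands, occurred in 4 of the 8 windows from 250 bases before to 50 bases after the start, 1 each for Nfe2l2, Gclm, Srxn1 and Txnrd1, and in 12.4% of all 32851 promoters. Below, capitals mark that core in the first 3 sequences (in Gclm and Txnrd1 it reads on the opposite strand), and in Srxn1 they mark the AP-1 site TGANTCA.
Nfe2l2 (chr2:75704854-75704913, minus strand): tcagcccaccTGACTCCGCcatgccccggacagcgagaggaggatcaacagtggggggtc
Gclm (chr3:122245397-122245456, plus strand): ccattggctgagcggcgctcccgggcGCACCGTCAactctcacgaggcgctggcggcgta
Txnrd1 (chr10:82859088-82859147, plus strand): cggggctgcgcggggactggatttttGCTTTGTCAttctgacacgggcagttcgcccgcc
Srxn1 (chr2:152105409-152105498, plus strand): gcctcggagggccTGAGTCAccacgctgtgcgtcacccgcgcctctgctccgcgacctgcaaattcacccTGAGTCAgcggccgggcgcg

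Counted from the start, the core lay at -240 to -232 in Nfe2l2, at -134 to -126 in Gclm and at -92 to -84 in this Txnrd1 promoter. In Srxn1 it lay after the start, at 29 to 37. Srxn1 was the only matched gene with an AP-1 site, which it had at -102 to -96 and at -45 to -39, and which 7.81% of all promoters held. The later of these runs on into the letters gc, so that it also matches TGANNNNGC, a looser form of the core found in 6 of the 8 promoters and in 41.3% of all. No TGACNNNGC was found in the windows of Keap1 and Nqo1. A match is a description of letters and not a site in use, and elements farther from the start are not covered.

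The libraries of the Y-KO group did not resemble each other equally. Total counts ran from 42040955 to 52951031 over the 6 libraries. A chi-square statistic per gene, averaged over genes with at least 1000 counts in the pair, was 12.9 between Y-KO replicates 1 and 2 but 161 and 160 between these and Y-KO replicate 3. It was 7.49 between Y-Scr replicates 2 and 3, against 26.7 and 36.1 between these and Y-Scr replicate 1. Whether the libraries of a close pair came from separate tumours was not tested, and the results of the 10 genes and the counts of the lists are given below with all libraries and with Y-KO replicate 3 left out. The labels were checked on 8 broadly expressed Y-linked genes, whose summed CPM (counts scaled to a fixed library total) were 20.4 to 47.3 in the Y-KO libraries and 297 to 344 in the Y-Scr libraries. Of these, 5 passed the filter and all 5 were lower in Y-KO, in both fits. Over all tested genes edgeR called 7.82% higher and 8.27% lower, or 16.0% and 17.7% with Y-KO replicate 3 left out. Of 16 epithelial and urothelial markers 12 passed the filter, with 4 higher in Y-KO (Krt8, Krt18, Krt14 and Krt19) and 2 lower (Epcam and Gata3), or 4 and 5 with Y-KO replicate 3 left out. Their summed level was 3287 to 3479 CPM over the Y-KO libraries and 2428 to 2754 CPM over the Y-Scr libraries, mostly from Krt8 and Krt18, while Epcam averaged 1.04 and 3.66 CPM and the urothelial genes Upk2 and Upk3a had 0 counts throughout. Ptprc, which encodes CD45, ranged from 134 to 298 CPM over the Y-KO libraries and from 521 to 601 CPM over the Y-Scr libraries, so leukocyte RNA was present in all libraries. In such bulk samples, fewer cells of a type and less RNA per cell cannot be told apart. Mitochondrially encoded transcripts took 6.39% to 6.44% of counts in Y-KO and 2.87% to 2.995% in Y-Scr, and all 13 of the mitochondrial mRNAs were higher in Y-KO by edgeR in both fits (median log2 fold change 1.31 with all libraries). Their part in the results below was not tested.

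None of the 10 Nrf2 genes passed the test of Y-KO against Y-Scr (quasi-likelihood test of edgeR, adjusted over 17837 genes by Benjamini-Hochberg, threshold 0.05), while 16.1% of all tested genes did. At an unadjusted p under 0.05 there were 3 members, Nqo1, Hmox1 and Abcc1, against 30.7% of all genes. DESeq2 called 1 member higher, Abcc1, and 1 lower, Nqo1, where it called 10.3% of all genes higher and 11.2% lower. With limma-voom 1 member was lower, Nqo1, against 9.83% of all genes. Nqo1 was also the member called lower by edgeR with library size alone as the scaling (12.6% of all genes), with a filter of at least 1 CPM in 3 libraries (10.4%) and without Y-KO replicate 1 (5.35%). With no filter beyond 1 count, Hmox1 and Abcc1 were called higher (5.24% of all genes). The 3 values of each group did not overlap in 3 members (Keap1, Nqo1 and Abcc1), against 37.7% of all genes. For all 10 genes the standard deviation was larger in Y-KO than in Y-Scr, as it was for 66.1% of all genes. Y-KO replicate 3 was the lowest Y-KO library for 9 of them, all but Keap1, and for 39.2% of all genes. Y-KO replicates 1 and 2 both lay above all Y-Scr libraries for 7 members and for 26.9% of all genes. Y-KO replicate 3 lay above all Y-Scr libraries for 2 members and 34.9% of all genes, and below them for 7 members and 38.0% of all genes. These shares describe the same 6 libraries and were not tested against the members.

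**Figure D1:**
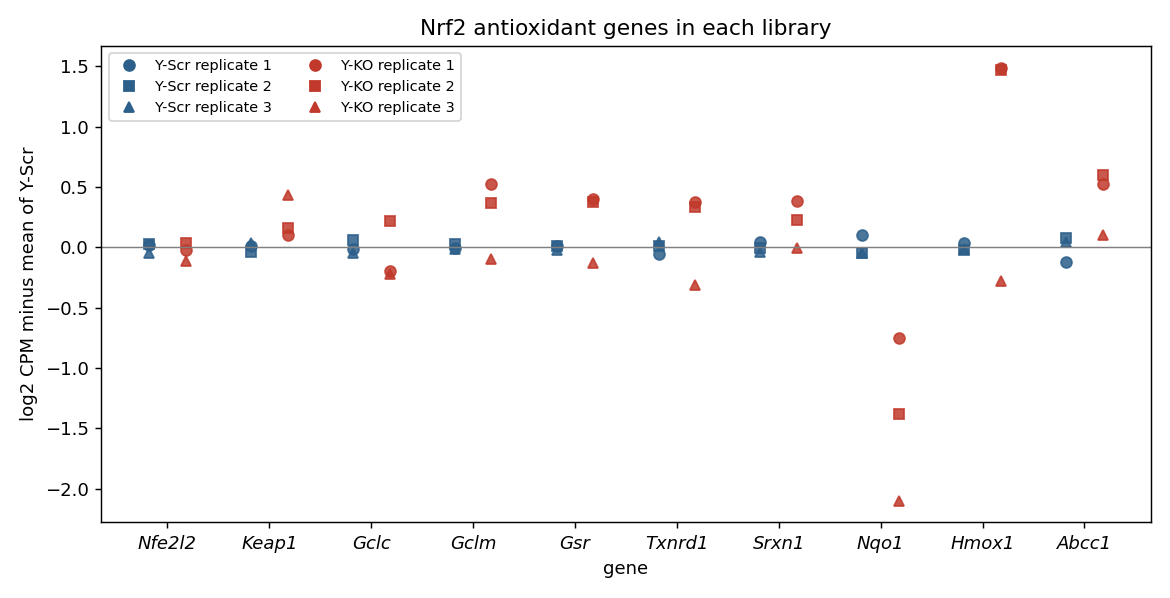
Level of each Nrf2 antioxidant gene in each of the 6 libraries, as log2 CPM minus the mean of the 3 Y-Scr libraries (vertical axis), with Y-Scr in blue and Y-KO in red and symbols for the replicates. Y-Scr libraries stay close to 0. For several genes Y-KO replicate 3 (red triangle) is apart from Y-KO replicates 1 and 2. This is clearest for Hmox1, where Y-KO replicates 1, 2 and 3 differ from the Y-Scr mean by 1.49, 1.47 and -0.28. For Gclc it is Y-KO replicate 2 that is apart (-0.20, 0.21 and -0.22), and for Nqo1 all 3 are apart (-0.75, -1.38 and -2.10).

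Leaving out Y-KO replicate 3 changed these counts. In that fit 6 members were higher in Y-KO (Gclm, Gsr, Txnrd1, Srxn1, Hmox1 and Abcc1), where 16.0% of all genes were called higher, and 1 was lower (Nqo1), where 17.7% were called lower. Only the close pair then stands for Y-KO, so its spread may be too small. With each close pair summed into 1 sample, no member was called, and 0.700% and 1.85% of all genes were called higher and lower.

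**Figure D2:**
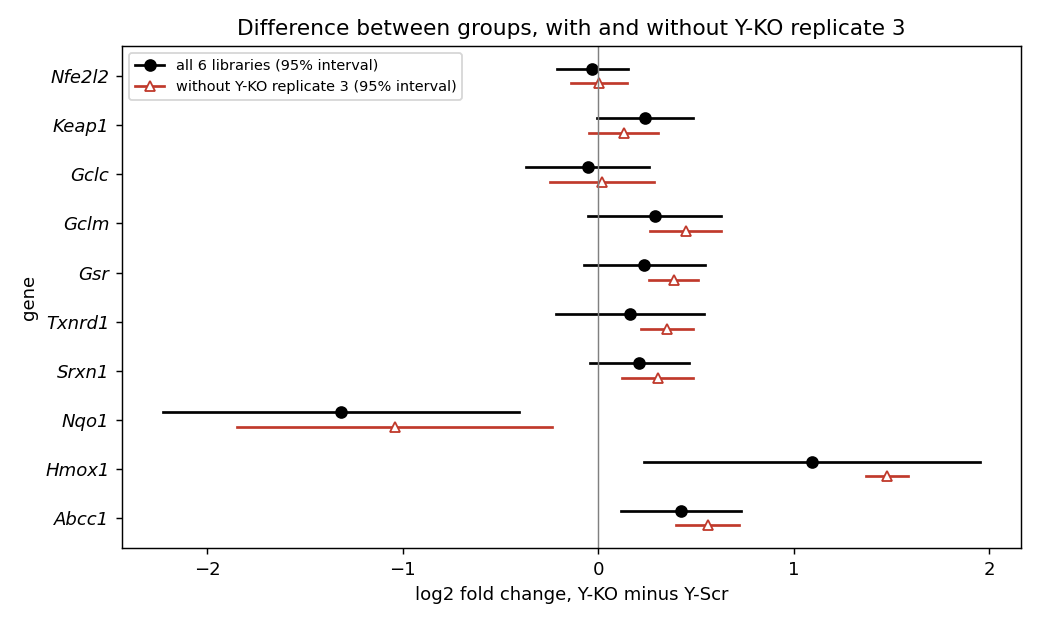
Log2 fold change of each Nrf2 antioxidant gene, Y-KO minus Y-Scr (horizontal axis), with 95% intervals, from all 6 libraries (black circles) and without Y-KO replicate 3 (red triangles). The Hmox1 interval narrows from 0.23 to 1.95 with all libraries to 1.37 to 1.58 without Y-KO replicate 3, and the intervals of Nfe2l2, Keap1 and Gclc include 0 in both fits.

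The transcription factor gene Nfe2l2 (ENSMUSG00000015839, chromosome 2, 75505857 to 75534985, GRCm39) differed little between the groups. It stood at 134.5, 140.4 and 127 CPM in Y-KO replicates 1, 2 and 3 and at 139, 139 and 132 CPM in Y-Scr replicates 1, 2 and 3. The groups overlapped, and the difference was -0.03 on the log2 scale (SE 0.08, 95% interval -0.21 to 0.15, edgeR adjusted p = 0.835). That interval leaves out a change of 1 log2 unit in either direction. The difference was above 0 without Y-KO replicate 3 (0.0057) and without Y-Scr replicate 1 (0.0012). Its size depended on the scaling. With library size alone it was -0.17 (edgeR adjusted p = 0.161), the lowest value among the 16 alternatives.

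Keap1 (ENSMUSG00000003308, chromosome 9, 21141026 to 21150657), which encodes the inhibitor of Nrf2, stood at 58.3, 60.9 and 73.4 CPM in the Y-KO libraries and at 54.6, 52.7 and 55.7 CPM in the Y-Scr libraries. All Y-KO libraries lay above all Y-Scr libraries, with Y-KO replicate 3 the highest, but the difference of 0.24 (SE 0.11) did not pass (edgeR adjusted p = 0.170). On leaving out Y-KO replicate 3 it was 0.13 (SE 0.08, edgeR adjusted p = 0.259). Of its exonic bases 10.9% are shared with Gm16754 on the other strand. By the defaults of the counting program, reads over them were left out, since strand was not used. The ratio of Nfe2l2 to Keap1 in CPM, which like the ratio of Gclc to Gclm below was chosen after the values were seen, was 2.31, 2.31 and 1.73 in Y-KO and 2.54, 2.64 and 2.38 in Y-Scr. These ranges did not overlap, and the exact two-sided permutation p over libraries was 0.1, the smallest that 3 against 3 allow (0.1 after adjustment over the 2 ratios tested).

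Gclc and Gclm encode the catalytic and the modifier subunit of glutamate-cysteine ligase, which makes the rate-limiting step of glutathione synthesis. Gclc (ENSMUSG00000032350, chromosome 9, 77661817 to 77701767) stood at 23.5, 31.3 and 23.1 CPM in the Y-KO libraries and at 26.7, 28.1 and 26.1 CPM in the Y-Scr libraries. Its Y-KO values lay on both sides of the Y-Scr range, and the difference was -0.05 (SE 0.14, 95% interval -0.37 to 0.26, edgeR adjusted p = 0.835). It changed sign on leaving out Y-KO replicate 1 (0.0098) and on leaving out Y-KO replicate 3 (0.02). Gclm (ENSMUSG00000028124, chromosome 3, 122039206 to 122064381) stood at 73.8, 66.1 and 47.8 CPM in the Y-KO libraries and at 51.1, 52.1 and 50.6 CPM in the Y-Scr libraries. Y-KO replicates 1 and 2 were above, and Y-KO replicate 3 below, every Y-Scr library. Of its exonic bases 4.71% are shared with 2 other gene models. Its difference was 0.29 (SE 0.15, edgeR adjusted p = 0.234) with all libraries and 0.45 (SE 0.08, edgeR adjusted p = 0.000729) when Y-KO replicate 3 was left out. The ratio of Gclc to Gclm was 0.319, 0.473 and 0.483 in Y-KO and 0.522, 0.541 and 0.515 in Y-Scr, lower in every Y-KO library (exact two-sided permutation p = 0.1, the smallest possible, and 0.1 after adjustment).

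Gsr, Txnrd1 and Srxn1 encode enzymes that restore used-up antioxidants, and their order of libraries was close to that of Gclm. Glutathione reductase, the product of Gsr (ENSMUSG00000031584, chromosome 8, 34142551 to 34188191), returns oxidised glutathione to its reduced form with NADPH. Its gene stood at 261, 257 and 181 CPM in the Y-KO libraries and at 199, 199.5 and 195 CPM in the Y-Scr libraries. Thioredoxin reductase 1, from Txnrd1 (ENSMUSG00000020250, chromosome 10, 82669785 to 82733546), does the same for cytosolic thioredoxin, and its gene stood at 229, 222 and 142 CPM against 170.0, 178 and 182 CPM. Srxn1 (ENSMUSG00000032802, chromosome 2, 151947436 to 151953296), which encodes sulfiredoxin, the repair enzyme of over-oxidised peroxiredoxins, stood at 70.2, 63.0 and 53.8 CPM against 55.6, 53.7 and 52.5 CPM. In each of the 3 genes Y-KO replicates 1 and 2 lay above all Y-Scr libraries. Y-KO replicate 3 lay below them for Gsr and Txnrd1 and within their range for Srxn1.

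With all libraries the differences were 0.24 (SE 0.14, edgeR adjusted p = 0.281) for Gsr, 0.16 (SE 0.17, edgeR adjusted p = 0.565) for Txnrd1 and 0.21 (SE 0.11, edgeR adjusted p = 0.245) for Srxn1. With Y-KO replicate 3 left out they were 0.39, 0.35 and 0.30, with edgeR adjusted p = 0.000107, 0.000412 and 0.0122. Among all pairs of the 10 members, Gclm and Gsr were the most alike: after centring each gene on its own mean, their log2 CPM differed by 0.04 on average over the 6 libraries. Gsr with Txnrd1 and Gsr with Srxn1 followed at 0.06 each.

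Nqo1 (ENSMUSG00000003849, chromosome 8, 108114857 to 108129838), whose product NAD(P)H quinone dehydrogenase 1 reduces quinones and is a standard readout of Nrf2, was the member with the lowest level. It had 68, 40 and 24 counts in Y-KO and 139, 102 and 123 counts in Y-Scr, which is 1.40, 0.903 and 0.545 CPM against 2.54, 2.29 and 2.30 CPM. All Y-KO libraries were below all Y-Scr libraries. Reads rather than pairs were counted, so a fragment can count more than once. Of all gene counts from 2 to 20, 80.3% to 82.3% were even in each library. The difference was -1.32 (SE 0.40, 95% interval -2.23 to -0.41, a 2.49-fold lower level), which missed the threshold at edgeR adjusted p = 0.0567. It was past the threshold in 6 of 16 alternative fits, among them those on leaving out Y-KO replicate 1 (-1.71, edgeR adjusted p = 0.0352) and on leaving out Y-KO replicate 3 (-1.04, edgeR adjusted p = 0.0454), and was negative in all 16. With all counts halved the difference was -1.30 (edgeR adjusted p = 0.05115).

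Hmox1 (ENSMUSG00000005413, chromosome 8, 75820249 to 75827217), encoding haem oxygenase 1, which splits haem into biliverdin, iron and carbon monoxide, was the most abundant member and had the widest spread in CPM. It stood at 1232, 1216 and 362 CPM in the Y-KO libraries and at 450.1, 432 and 435 CPM in the Y-Scr libraries. Y-KO replicates 1 and 2 were far above the Y-Scr libraries and Y-KO replicate 3 was below all of them, so the groups overlapped. The difference was 1.09 (SE 0.38, a 2.13-fold higher level), with edgeR adjusted p = 0.0851. With Y-KO replicate 3 left out it was 1.48 (SE 0.05, 2.78-fold higher, edgeR adjusted p = 1.002e-11). With the close pairs summed it was 0.85 (edgeR adjusted p = 0.442), and with no filter beyond 1 count it passed (1.08, edgeR adjusted p = 6.514e-05). It did not pass without any other single library (edgeR adjusted p 0.203 to 0.235).

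The summed level of macrophage markers moved with Hmox1 in these libraries. Of 20 macrophage and monocyte markers 10 were higher and 1 was lower in Y-KO by edgeR, where 7.82% of all genes were called higher and 8.27% lower, and none of the 20 was at 0. When Y-KO replicate 3 was left out, 17 were higher and 1 was lower, beside 16.0% and 17.7% of all genes. With library size alone as the scaling 6 were higher, and with the close pairs summed 1 was. Their summed level was 3807, 3776 and 1927 CPM in Y-KO replicates 1, 2 and 3 and 2274, 2156 and 2118 CPM in Y-Scr replicates 1, 2 and 3. Hmox1 divided by that sum was 0.324, 0.322 and 0.188 in Y-KO and 0.198, 0.200 and 0.206 in Y-Scr, so that the ratio too was higher in Y-KO replicates 1 and 2 only. A sum weighs the most abundant markers most. The mean log2 CPM of the 20 markers was 6.44, 6.46 and 5.67 in Y-KO and 5.62, 5.58 and 5.59 in Y-Scr. By that mean Y-KO replicate 3 lay above all Y-Scr libraries, unlike its Hmox1. The part of macrophage RNA in the Hmox1 values was not tested.

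**Figure D3:**
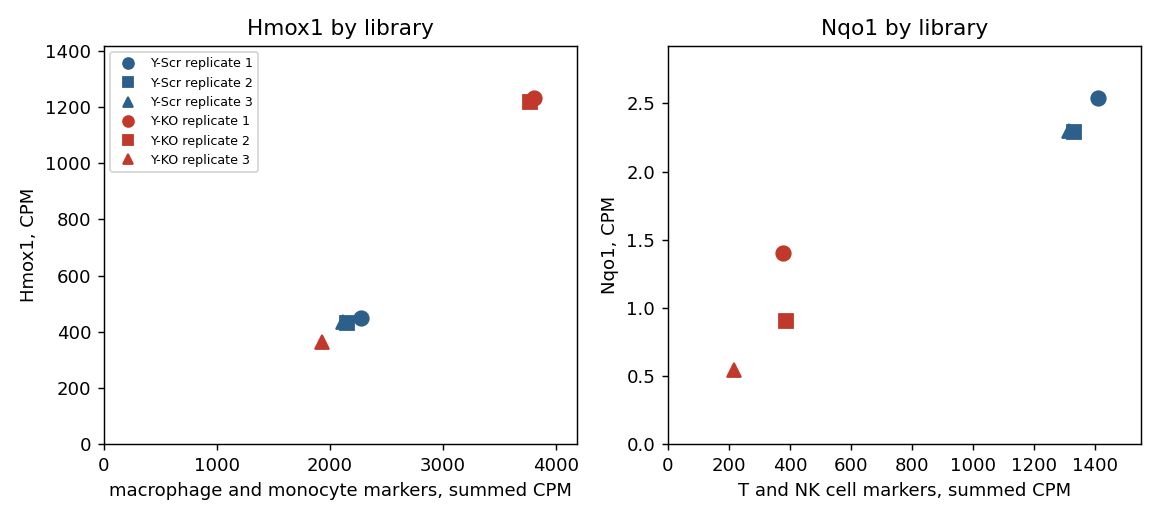
Each point is 1 library (Y-Scr blue, Y-KO red, symbols for replicates). Left, Hmox1 in CPM against the summed CPM of 20 macrophage and monocyte markers, with Y-KO replicates 1 and 2 high on both axes at 1232 and 1216 CPM and Y-KO replicate 3 lowest on both. Right, Nqo1 in CPM against the summed CPM of 19 T and NK cell markers, with all Y-KO libraries lower than all Y-Scr libraries on both axes.

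The genes most like 3 of the members were sought among 10430 tested genes (10431 for Nqo1) of at least 5 CPM, by the mean absolute difference in centred log2 CPM over the 6 libraries. Nearest to Hmox1 were Thbd at 0.05, Msr1 at 0.05 and Ace at 0.07, where the median gene was at 0.68. Msr1, a scavenger receptor gene, is among the 20 macrophage markers and averaged 131 ± 65.6 CPM (SD, n = 3) over the Y-KO libraries against 65.2 ± 1.01 CPM over the Y-Scr libraries, without being called (edgeR adjusted p = 0.0894). Nearest to Nqo1 were Itgae, an integrin gene of tissue T cells, Sla2, an adaptor gene of lymphocytes, and Clec2i, each at 0.09, with the median gene at 0.74. Nearest to Nfe2l2 were Pitpnm1 at 0.0075, Snapc1 at 0.02 and Lrp10 at 0.02, with the median gene at 0.17. The marker counts that follow are to be read beside 7.82% of all genes called higher and 8.27% called lower. With Y-KO replicate 3 left out these shares were 16.0% and 17.7%. By edgeR, 17 of the 19 markers of T and NK cells were lower in Y-KO and none was higher. When Y-KO replicate 3 was left out, 17 were lower and 1 was higher. The summed level of the 19 was 377, 388 and 218 CPM in Y-KO against 1410.4, 1332 and 1314 CPM in Y-Scr. None of the 19 was at 0. Of 18 fibroblast markers 6 were lower and none higher (12 lower without Y-KO replicate 3), with sums of 1047, 1064 and 2571 CPM over the Y-KO libraries and 3103 to 3227 CPM over the Y-Scr libraries. Other marker lists were lower in Y-KO too. Of 12 neutrophil markers tested 6 were lower and none higher (7 lower and 2 higher when Y-KO replicate 3 was left out), with sums of 434 to 821 CPM against 1600.2 to 1781 CPM in Y-Scr. Of 10 tested markers of B and plasma cells 7 were lower and none higher (9 lower and 0 higher without that library), with sums of 27.0 to 34.1 CPM against 107 to 114 CPM. Of 7 tested markers of erythroid cells and platelets 5 were lower and none higher (6 lower and 1 higher without it), with sums of 25.6 to 51.4 CPM against 260 to 309 CPM. Of 14 markers shared by leukocytes 5 were lower and none higher (9 lower and 2 higher without it), with sums of 1581 to 3344 CPM against 4063 to 4230 CPM. Of 11 tested endothelial markers 1 was higher and none lower (2 and 2, higher and lower, when Y-KO replicate 3 was left out). The summed level of the 12 endothelial markers was nevertheless lower in every Y-KO library, at 64.3 to 67.4 CPM against 88.3 to 96.1 CPM in Y-Scr. The part of other cell types in the Nqo1 values was not tested.

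Abcc1 (ENSMUSG00000023088, chromosome 16, 14179422 to 14293601), encoding the multidrug resistance protein that pumps glutathione conjugates out of the cell, stood at 159, 168 and 118 CPM in the Y-KO libraries and at 102, 117 and 113.5 CPM in the Y-Scr libraries. All Y-KO libraries were above all Y-Scr libraries, although Y-KO replicate 3 exceeded Y-Scr replicate 2 only narrowly. The difference was 0.42 (SE 0.13, 95% interval 0.12 to 0.73, a 1.34-fold higher level), with edgeR adjusted p = 0.0663. Without Y-KO replicate 3 it was 0.56 (SE 0.07, edgeR adjusted p = 3.06e-05).

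Levels of different genes were compared per length, as TPM, which divide the counts by the deposited exon length before scaling each library to a fixed total. TPM was used only to order the genes, not to compare the groups. In Y-Scr the order was Hmox1 (786 ± 14.5 TPM, SD, n = 3), Gsr (225 ± 7.34 TPM), Nfe2l2 (113 ± 3.79 TPM), Txnrd1 (78.3 ± 5.61 TPM), Srxn1 (59.9 ± 0.861 TPM), Keap1 (36.3 ± 1.69 TPM), Gclm (25.6 ± 1.09 TPM), Abcc1 (23.0 ± 2.48 TPM), Gclc (22.5 ± 1.33 TPM) and Nqo1 (4.79 ± 0.101 TPM). The ranges of Gclm and Abcc1, and of Abcc1 and Gclc, overlapped, and the other neighbours in that order were apart. The order in Y-KO was the same, from Hmox1 at 1416 ± 751 TPM to Nqo1 at 1.62 ± 0.726 TPM, with the ranges of Txnrd1 and Srxn1 overlapping as well. Hmox1 was thus the highest and Nqo1 the lowest in both groups. Among all tested genes, Hmox1 lay at the 99.1 percentile of mean CPM and Nqo1 at 27.96.

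**Figure D4:**
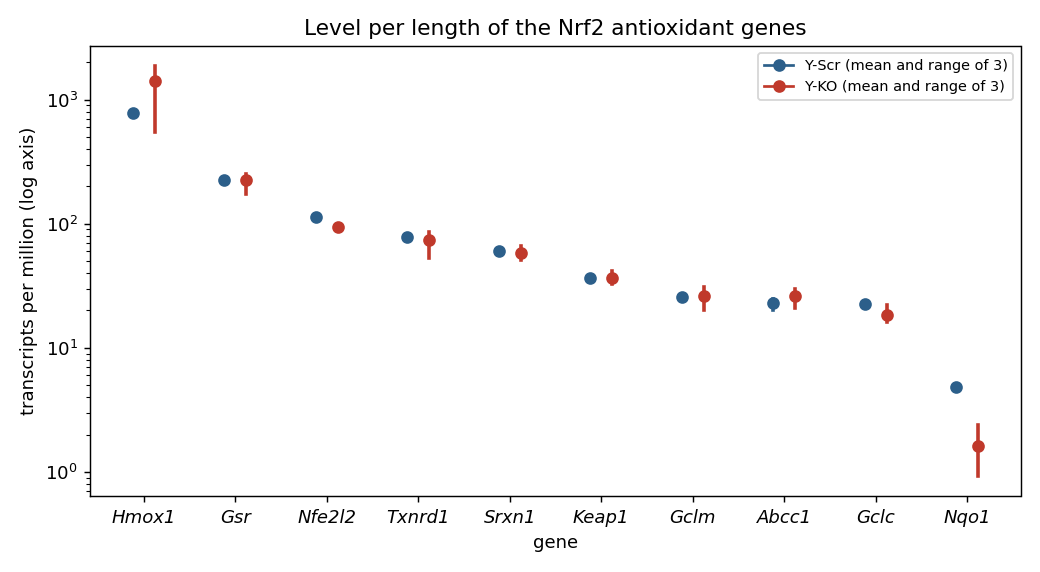
Level per length of the 10 Nrf2 antioxidant genes in TPM on a log axis, ordered by the Y-Scr mean, with the mean (point) and range (bar) of the 3 libraries of Y-Scr (blue) and Y-KO (red). Levels span from 786 TPM for Hmox1 to 4.79 TPM for Nqo1 in Y-Scr, and the Y-KO ranges are the wider ones.

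Other genes around the pathway were counted in lists. The lists share genes, and a shared gene counts in each, so calls in different lists are not independent. Among called genes, Txn1, Prdx1 and Prdx6 are both in the list of other Nrf2 targets and in the thioredoxin list. Ftl1 is also in the haem list and Nupr1 in the Atf4 list, beside the list of other Nrf2 targets. Counts are edgeR calls over all genes tested, to be read beside 7.82% higher and 8.27% lower and a median log2 fold change of -0.03 over all genes. Counts with Y-KO replicate 3 left out are to be read beside 16.0% higher and 17.7% lower. With the close pairs summed, the only calls in these 8 lists were 1 regulator lower, 1 glutathione S-transferase higher and 4 Atf4 targets higher. Of the list genes named below, 6 stayed called with the close pairs summed, namely Bach2, Gsto1, Trib3, Asns, Slc7a5 and Shmt2, and these were also called in every other alternative run. Adjusted p-values in the next paragraphs are from edgeR with all 6 libraries, or the highest on leaving out 1 library where that is said.

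Of 20 regulators and partners of Nrf2, 2 were higher, 1 was lower and 17 were not called (median 0.05). Bach2, encoding a repressor that competes for the same DNA elements and is known from lymphocytes, fell 5.06-fold, from a mean of 5.69 CPM in Y-Scr to 1.12 CPM in Y-KO (adjusted p = 0.00111). The ubiquitin ligase scaffold gene Cul3, whose product works with Keap1, was 1.31-fold higher (adjusted p = 0.0432). The ligase gene Syvn1 was 1.28-fold higher (adjusted p = 0.0256). Cul3 and Syvn1 were no longer called on leaving out any library but Y-KO replicate 3 (adjusted p up to 0.141 and 0.0997), nor with library size alone as the scaling or the replicate block, and Cul3 was also lost with upper-quartile scaling. Library size alone left 0 regulators higher and 2 lower. With Y-KO replicate 3 left out, 6 regulators were higher and 3 lower.

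Of 36 other known Nrf2 targets tested, 6 were higher, 2 were lower and 28 were not called (median 0.17). Txn1, encoding thioredoxin, the substrate of thioredoxin reductase, rose by 0.58 on the log2 scale (SE 0.09, adjusted p = 0.00383), from a mean of 372 CPM to 557 CPM. Nupr1, the gene of a stress-induced nuclear protein, rose 1.87-fold, and Slc3a2, the heavy chain gene of amino acid exchangers, rose 1.66-fold. Prdx6, a peroxiredoxin gene, was 1.35-fold higher, a call that ended on leaving out Y-KO replicate 1 or 2 or Y-Scr replicate 2 or 3 (adjusted p up to 0.103) or with library size alone. Abcc4, an export pump gene related to Abcc1, fell 1.73-fold (adjusted p = 0.00190). The peroxiredoxin gene Prdx1 was 1.30-fold lower, a call that ended on leaving out each Y-Scr library (adjusted p up to 0.0785). Library size alone gave 3 targets higher and 3 lower, and upper-quartile scaling 4 and 3. With Y-KO replicate 3 left out, 16 targets were higher and 5 lower.

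Of 23 glutathione S-transferase genes, which encode enzymes that join glutathione to foreign molecules, 2 were higher and 3 lower (median -0.22). Gsto1 rose 1.75-fold (adjusted p = 0.000695) and Gstp1 rose 1.60-fold (adjusted p = 0.00162). Gstm2 was 1.73-fold, Gstm1 1.61-fold and Gstt1 1.38-fold lower. All 3 of these lower calls ended on leaving out any library but Y-KO replicate 3, with adjusted p up to 0.0748, 0.121 and 0.182, and that of Gstt1 also with upper-quartile scaling or the replicate block. Library size alone gave 2 higher and 5 lower. Genes of this family resemble each other, so their counts are uncertain. With Y-KO replicate 3 left out, 5 transferase genes were higher and 8 lower.

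Of 24 genes of glutathione synthesis and turnover 6 were higher and 2 lower (median 0.22), 9 and 5 with Y-KO replicate 3 left out, and 4 and 5 with library size alone. The peroxidase gene Gpx1 rose 1.67-fold, from a mean of 25.0 CPM to 41.8 CPM (adjusted p = 0.00348), and the mitochondrial glutaredoxin gene Glrx5 rose 1.45-fold (adjusted p = 0.00643). The mitochondrial carrier gene Slc25a39 and the esterase gene Esd were 1.41-fold and 1.42-fold higher, calls that ended on leaving out Y-Scr replicate 2 or 3 and, for Esd, also Y-KO replicate 1 or 2 (adjusted p up to 0.0799 and 0.0735). Ggt7 was 1.58-fold lower, lost on leaving out each Y-Scr library (adjusted p up to 0.0756). Oplah was 1.51-fold lower, lost on leaving out any library but Y-KO replicate 3 (adjusted p up to 0.192), with upper-quartile or relative log expression scaling and with the replicate block.

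Of 18 thioredoxin and peroxiredoxin genes 5 were higher and 2 lower (median 0.27), and 10 and 4 with Y-KO replicate 3 left out. With library size alone 2 were higher, with upper-quartile scaling 3 and with the replicate block 3. Prdx5 was 1.42-fold and Prdx2 1.26-fold higher. The Prdx5 call ended on leaving out Y-Scr replicate 2 or 3 (adjusted p up to 0.0571), and the Prdx2 call there and on leaving out Y-KO replicate 1 or 2 (adjusted p up to 0.158). Sesn3, encoding a sestrin, was 2.28-fold lower, a call that ended on leaving out any library but Y-KO replicate 3 (adjusted p up to 0.144) and with DESeq2. Of 7 genes of superoxide and peroxide removal 3 were higher and none lower (median 0.31), and 3 and 1 with Y-KO replicate 3 left out. Gpx1 and Gpx4, among the higher ones, are also counted among the higher genes of glutathione synthesis and turnover. The mitochondrial dismutase gene Sod2 was 1.43-fold and the lipid peroxidase gene Gpx4 1.24-fold higher. The Sod2 call ended on leaving out Y-KO replicate 1 or Y-Scr replicate 2 or 3 (adjusted p up to 0.0634), and the Gpx4 call on leaving out these or Y-KO replicate 2 (adjusted p up to 0.192). Prdx2 and Gpx4 were also lost with library size alone, with upper-quartile scaling and with the replicate block.

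Around haem oxygenase, 4 of 26 genes of haem and iron handling were higher and 3 lower (median 0.03), and 9 and 5 with Y-KO replicate 3 left out. All of the higher calls ended with library size alone as the scaling (0 higher, 4 lower), and upper-quartile scaling gave 1 higher. The haem synthesis gene Ppox fell by 0.58 on the log2 scale (adjusted p = 0.00620). The haem exporter gene Flvcr1 was 0.59 higher on the log2 scale, the iron-sensing gene Aco1 1.23-fold and the ferritin gene Ftl1 1.42-fold higher. These 3 calls ended on leaving out any library but Y-KO replicate 3 (adjusted p up to 0.167), and Ftl1 has near-identical copies. The transferrin receptor gene Tfrc was 1.58-fold lower and the haemoglobin receptor gene Cd163, which also counts among the macrophage markers, 2.81-fold lower. Both calls ended on leaving out Y-KO replicate 2 or any Y-Scr library (adjusted p up to 0.141 and 0.110).

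Of 20 targets of Atf4, the stress factor that shares some genes with Nrf2, 14 were higher and none lower (median 0.81). The asparagine synthetase gene Asns rose 3.02-fold, from a mean of 60.1 CPM to 181 CPM, and the pseudokinase gene Trib3 rose 2.498-fold, from 39.9 CPM to 99.7 CPM. The amino acid transporter gene Slc7a5 rose 2.30-fold and the mitochondrial serine enzyme gene Shmt2 rose 2.31-fold. With Y-KO replicate 3 left out, 19 Atf4 targets were higher and 1 was lower.

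**Figure D5:**
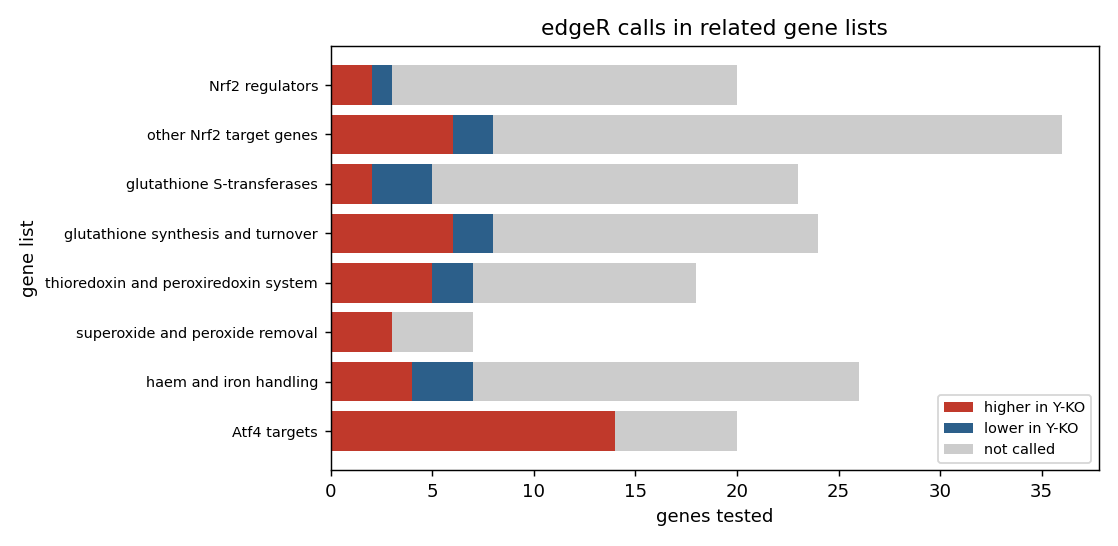
Number of tested genes in each list around the Nrf2 pathway (horizontal bars) that edgeR called higher in Y-KO (red), lower in Y-KO (blue) or did not call (grey), from all 6 libraries. The Atf4 list has 14 of 20 genes called higher, while the list of other Nrf2 targets has 6 of 36. The lists share some genes, which count in each.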

How the data were processed

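Poly-A RNA of 6 libraries was sequenced with a stranded kit, per the labels. The authors deposited raw counts of reads for each gene, made by featureCounts 1.5.3 on GRCm39 (Ensembl release 112), per the file headers; with no other option given, strand was not used, reads rather than pairs were counted, and reads fitting several genes or places were left out. The submitters' processing notes also name FastQC 0.12.1, MultiQC 1.13, Trimmomatic 0.39 and STAR 2.5.2b. Exon length per gene is the deposited Length column, in bases.

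Symbols came from an older mouse annotation by gene ID (51880 IDs, 90.7%); where 2 IDs shared a symbol, the one with more counts was used. The main test was that of edgeR 4.0.16 (R 4.3.3), with filterByExpr (minimum count 10, minimum total 15), TMM scaling, quasi-likelihood test with group alone, calls at a Benjamini-Hochberg adjusted p under 0.05. CPM use the TMM-adjusted library size. The SE is the size of the log2 fold change divided by the square root of F. Alternatives were DESeq2 1.42.0, limma 3.58.1 (voom), other scalings and filters, halved counts, a replicate block, summed close pairs and leaving out each library. Scripts were tested on simulated data. Plots used matplotlib 3.10.9.

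Of 338 list symbols in 19 lists, 337 matched. Named from a list were up to 4 genes with the smallest p among those called in each direction; 1 of these is not reported here. The Nrf2 genes and the lists were chosen with earlier results of these data known. The 2 ratios tested were chosen after the values were seen; Hmox1 over Nqo1 was computed as well and not tested. Reads are not independent molecules.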

Additional observations from a re-analysis of the deposited data

How the results depend on the processing

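Over 16 alternatives for each of the 10 Nrf2 genes (160 values), 141 kept direction and side of the threshold, 15 passed the threshold in the same direction and 4 changed sign. Those 4 were Gclc (0.0098 and 0.0207) on leaving out Y-KO replicate 1 or 3, and Nfe2l2 on leaving out Y-KO replicate 3 (0.0057) or Y-Scr replicate 1 (0.0012). Over all single libraries left out, Gclc ranged from -0.2109 to 0.0207 and Nfe2l2 from -0.0684 to 0.0057. Against no member called higher, 2 were higher with no filter beyond 1 count (5.24% of all genes) and 1 with DESeq2 (10.3%). Against no member called lower, 1 was lower with library size alone as the scaling (12.6% of all genes), with at least 1 CPM in 3 libraries (10.4%), with DESeq2 (11.2%) and with limma-voom (9.83%). Leaving out 1 library gave 0 to 6 higher and 0 to 1 lower members, the 6 without Y-KO replicate 3 (16.0% of all genes). The cause was not tested. The number of all genes called was 2871, with 496 when the close pairs were summed and 1037 to 6393 when a library was left out. Library size alone moved the median of all genes from -0.03 to -0.17 and the split of calls from 1395 higher and 1476 lower to 730 and 2255. The replicate block left 2066 genes and no member called. Replicate numbers gave no pairing: deviations of same-numbered libraries correlated at -0.02 to 0.0031. The response element core was in 4 matched members, in 5 with the looser motif and in 3 in the 250 bases before the start. Counts of calls in the lists changed by over 1.5 times, or to or from 0, in 143 of 608 comparisons with an alternative. Low counts limit Nqo1, and with 3 libraries a group no outlier test of single libraries was made.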
